A study of Mus musculus with 10 samples.

Results

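Stat3, Jak3 and Socs3 are the genes examined here, chosen by their symbols as the members of the JAK-STAT3 pathway and its feedback that a table of 230 mouse genes lists. All 3 of the 3 symbols were found among the 230. The table comes from mRNA sequencing of MIN6N8 cells, a mouse insulinoma line used as a model of insulin-secreting beta-cells. PBS, the vehicle, was given to 5 samples and recombinant mouse IL-22 at 100 ng mL−1 to 5 samples, each for 4 h in low-glucose DMEM (5.5 mM). Both groups are the same tumour line. The labels do not say whether the samples came from separate cultures, so p-values measure only the spread between these samples. The paper gives a lower dose and a different number of samples, without saying whether that number is per group. The labels were followed.

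IL-22 is a cytokine of the IL-10 family that acts on epithelial and secretory cells. It binds a receptor made of IL-22RA1 and IL-10RB, whose tails carry Janus kinases (JAK1 and TYK2). These phosphorylate STAT3, which pairs with another STAT3 molecule, enters the nucleus and binds DNA at palindromic sites. SOCS3, whose gene is one of the best known STAT3 targets, is an SH2-domain protein that blocks Janus kinases at activated receptors and so limits the signal. JAK3 belongs to the same kinase family but is best known in blood cells, where it pairs with the common gamma chain of the receptors for IL-2 and related cytokines. In the pancreas, STAT3 and SOCS3 are known from the response of islets to cytokines, and SOCS3 can also dampen signaling from the insulin receptor.

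Stat3 (ENSMUSG00000004040.16) lies on chromosome 11 of GRCm38 (mm10, the build in the submitters' notes) from 100885098 to 100939540 on the minus strand. Socs3 (ENSMUSG00000053113.3) lies on the same chromosome from 117966079 to 117970047, also on the minus strand. Jak3 (ENSMUSG00000031805.17) lies on chromosome 8 from 71676296 to 71690575 on the plus strand. In GENCODE M21 the longest transcript has 24 exons for Stat3, 22 for Jak3 and 2 for Socs3. In part of its exons Jak3 shares 404 bp, or 7.55% of its annotated exon length, with Insl3 on the same strand, so reads there cannot be given to either gene by strand. Stat3 shares 72 bp with Stat5a on the opposite strand, which is 0.756% of its exon length, and whether the counting used strand is not given in the sources used here. The longest transcript of each of the 3 was compared with all annotated transcripts, and no other gene matched at 97% identity over 100 bp. Exons outside those longest transcripts were not searched, so this result does not clear the stretch that Jak3 shares with Insl3.

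Because STAT3 acts on DNA, and because Stat3 and Socs3 are themselves known STAT3 targets, the sequence around each RefSeq start site is shown, from 250 bases before it to 50 after it (RefSeq, GRCm38.p6). For Jak3 and Socs3 this start lies inside the gene as annotated in GENCODE. The whole Socs3 window does so, since that gene reaches 117970047. Sequence upstream of the outermost Socs3 start was therefore not searched. Capitals mark a match to TTCNNNGAA, the short palindrome that STAT dimers bind, which reads the same on both strands.

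Stat3, chr11:100939491-100939790, minus strand: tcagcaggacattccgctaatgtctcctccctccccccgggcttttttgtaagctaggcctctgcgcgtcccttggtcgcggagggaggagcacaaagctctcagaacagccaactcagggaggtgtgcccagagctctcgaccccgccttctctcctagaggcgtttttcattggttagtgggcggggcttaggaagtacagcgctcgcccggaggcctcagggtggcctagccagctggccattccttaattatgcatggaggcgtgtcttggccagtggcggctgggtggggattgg
Jak3, chr8:71676133-71676432, plus strand: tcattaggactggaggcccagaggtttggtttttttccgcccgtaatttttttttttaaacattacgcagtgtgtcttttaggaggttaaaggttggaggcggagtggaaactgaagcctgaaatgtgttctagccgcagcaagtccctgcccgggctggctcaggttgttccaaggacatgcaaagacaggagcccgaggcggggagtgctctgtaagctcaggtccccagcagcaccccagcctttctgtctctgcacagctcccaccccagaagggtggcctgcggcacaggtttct
Socs3, chr11:117969317-117969616, minus strand: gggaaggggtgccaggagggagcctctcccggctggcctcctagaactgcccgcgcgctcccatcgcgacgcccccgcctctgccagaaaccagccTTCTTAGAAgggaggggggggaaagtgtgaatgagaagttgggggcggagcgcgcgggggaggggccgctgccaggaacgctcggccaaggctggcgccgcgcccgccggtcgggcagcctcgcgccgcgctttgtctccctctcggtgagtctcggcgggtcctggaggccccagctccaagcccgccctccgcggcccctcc

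Of these windows, 1 held the palindrome. In Socs3 it read TTCTTAGAA and began 154 bases before the RefSeq start site (chr11:117969512-117969520), which is within the gene as annotated in GENCODE. The same letters stood in 8.30% of the 32851 promoter windows of the RefSeq table, and in 11.6% of the 172 listed genes that have a window. The stricter form TTCCNGGAA was in none of the 3 windows and in 1.15% of all windows. These are matches of letters in a short window, and binding was not measured.

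The deposited table is a selection. It lists only genes that passed the authors' own comparison of the same samples, so nearly every listed gene differs between the groups. Genes outside it, among them Il22ra1, Il10rb, Jak1, Tyk2 and the other Stat and Socs genes, were not analysed here. Of 15 beta-cell markers, 6 are listed, and each was expressed in every library, with Iapp, which encodes amylin, at 8928 ± 222 CPM (the reads of a gene scaled to a common library total; SD, n = 5) in the PBS libraries. Of 6 blood-cell markers, which would bear on Jak3, 0 are listed, and they were not analysed here. Library totals, recovered as count over CPM, were 23685886 to 35785877 in the PBS group and 26759223 to 30568907 in the IL-22 group.

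Expression of all 3 genes was higher with IL-22. By estimate Socs3 rose 1.40-fold, Jak3 1.30-fold and Stat3 1.21-fold, and in each gene the lowest IL-22 library exceeded the highest PBS library. The quasi-likelihood test of edgeR was run on the counts of all 230 genes, with the library totals as the scale and a threshold of 0.01 on the Benjamini-Hochberg adjusted p. By this test 81.3% of the listed genes rose with IL-22 and 13.5% fell. In 46.5% of them every IL-22 library exceeded every PBS library, and in 6.09% every IL-22 library was below. A call and a separation of the groups are thus common among listed genes and do not by themselves set these 3 apart. In bulk RNA, more transcript per cell and more cells that make it cannot be told apart.

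**Figure D1:**
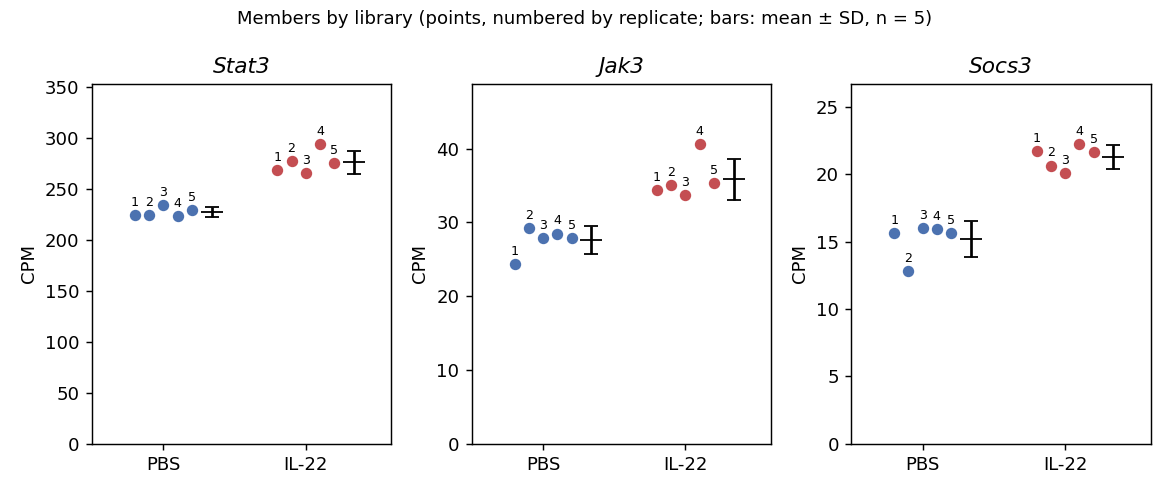
Expression of Stat3, Jak3 and Socs3 in CPM (vertical axes, from 0) in each PBS and IL-22 library, with points numbered by replicate and bars for the mean ± SD (n = 5). The lowest IL-22 library lies above the highest PBS library in each gene, by 31.5 CPM in Stat3, 4.45 CPM in Jak3 and 4.13 CPM in Socs3.

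Stat3, the transcription factor of the pathway, was at 224, 224, 234, 223 and 229 CPM in PBS replicates 1 to 5. With IL-22 it was at 268, 277, 265, 294 and 275 CPM. The PBS libraries lay close together, and IL-22 replicate 4 was the highest of its group. Between 5316 and 8252 reads were counted on Stat3 in a library, so that the counting error was 1.23% with PBS and 1.14% with IL-22, below the variation between replicates of 1.98% and 4.07%. The mean went from 227 ± 4.51 CPM to 276 ± 11.2 CPM (SD, n = 5). On the log2 scale the change was 0.28 (95% interval 0.21 to 0.35, SE 0.032), and the adjusted p was 1.3e-05. Stat3 was the most abundant of the 3 and ranked 19 among the 230 genes by mean CPM. Of the 18 listed genes that were more abundant, 1 had a larger log2 fold change, Rgs4, which encodes a regulator of G-protein signaling. The same count was 5 of 152 for Jak3 and 5 of 187 for Socs3. Abundant genes can pass the authors' selection with smaller changes, so these counts are shaped by it.

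Jak3, the kinase, was at 24.4, 29.2, 27.9, 28.5 and 27.9 CPM in PBS replicates 1 to 5 and at 34.4, 35.1, 33.7, 40.7 and 35.3 CPM in IL-22 replicates 1 to 5. PBS replicate 1 lay below and IL-22 replicate 4 lay above the rest of their groups, which widened the distance between the group means. The mean went from 27.6 ± 1.88 CPM to 35.8 ± 2.79 CPM (SD, n = 5), which is 0.38 on the log2 scale (95% interval 0.24 to 0.52, SE 0.065, adjusted p = 0.00037). Without IL-22 replicate 4 it was 0.33, and without PBS replicate 1 it was 0.34. Between 692 and 1142 reads were counted in a library, and the variation between replicates (6.80% with PBS and 7.78% with IL-22) was larger than the counting error of 3.52% and 3.17%. The counts may include reads from Insl3, in the stretch that both genes share.

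Socs3, the feedback inhibitor, was at 15.6, 12.8, 16.0, 15.9 and 15.6 CPM in PBS replicates 1 to 5. With IL-22 it was at 21.8, 20.7, 20.1, 22.3 and 21.7 CPM. PBS replicate 2, the shallowest library, stood apart with 304 reads, while the other PBS libraries lay between 15.6 and 16.0 CPM. The mean went from 15.2 ± 1.33 CPM to 21.3 ± 0.885 CPM (SD, n = 5), a log2 difference of 0.48 (95% interval 0.33 to 0.64, SE 0.073, adjusted p = 0.00013). Without PBS replicate 2 it was 0.43. The PBS replicates varied by 8.78%, above their counting error of 4.77%, and the IL-22 replicates by 4.16%, near theirs of 4.11%. Socs3 was among the less abundant listed genes, at rank 188 of 230 by mean CPM.

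Per kb of annotated exon, Stat3 was at 23.8 ± 0.473 CPM per kb with PBS and 29.0 ± 1.18 CPM per kb with IL-22 (SD, n = 5). Jak3 was at 5.15 ± 0.351 CPM per kb with PBS and 6.70 ± 0.521 CPM per kb with IL-22. Socs3 was at 5.26 ± 0.462 CPM per kb with PBS and 7.36 ± 0.306 CPM per kb with IL-22. On this scale the level of Stat3 was thus above both others, whereas Jak3 and Socs3 did not differ with PBS beyond their spread. Per kb of the longest transcript, Jak3 was at 6.81 ± 0.463 CPM per kb and Socs3 at 5.96 ± 0.523 CPM per kb with PBS, so their order turns on the length used.

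A ratio of 2 genes within a library does not depend on how libraries are scaled, and it tests whether they changed by different amounts. For every 100 reads of Stat3, Socs3 had 6.98, 5.72, 6.83, 7.14 and 6.81 reads in PBS replicates 1 to 5. With IL-22 it had 8.12, 7.45, 7.57, 7.57 and 7.89 reads. The groups did not overlap in this ratio. The difference of the mean log2 ratio was 0.21 (SE 0.061, 95% interval 0.068 to 0.35), and the exact permutation test, two-sided, gave p = 0.00794, the smallest that 5 against 5 allow. Adjusted over the 3 pairs compared, it was 0.0238, which passes the threshold of 0.05 used for these ratios. By this test Socs3 rose more than Stat3 in these samples. The longest transcripts have 58.7% GC for Socs3 and 52.5% for Stat3, and no ratio was tested with base composition taken into account. Leaving out any 1 library kept the difference between 0.15 and 0.23, and the lower value was without PBS replicate 2. The adjusted p was 0.0476 each time (exact permutation test). Since the full groups do not overlap, the p before adjustment is then always the smallest that the remaining libraries allow. It adds no further check. As a difference of medians it was 0.15 with an adjusted p = 0.143 (exact permutation test).

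Jak3 had 10.9 to 13.0 reads for every 100 of Stat3 with PBS and 12.7 to 13.8 with IL-22, and the groups overlapped. The difference of the mean log2 ratio was 0.098 (95% interval -0.021 to 0.22, exact permutation p = 0.103, adjusted 0.155). For Socs3 over Jak3 it was 0.11 (95% interval -0.11 to 0.33, exact permutation p = 0.294, adjusted 0.294). The order of Jak3 between the other two is therefore not resolved with these samples, and the intervals allow differences of up to 0.22 and 0.33 on the log2 scale.

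**Figure D2:**
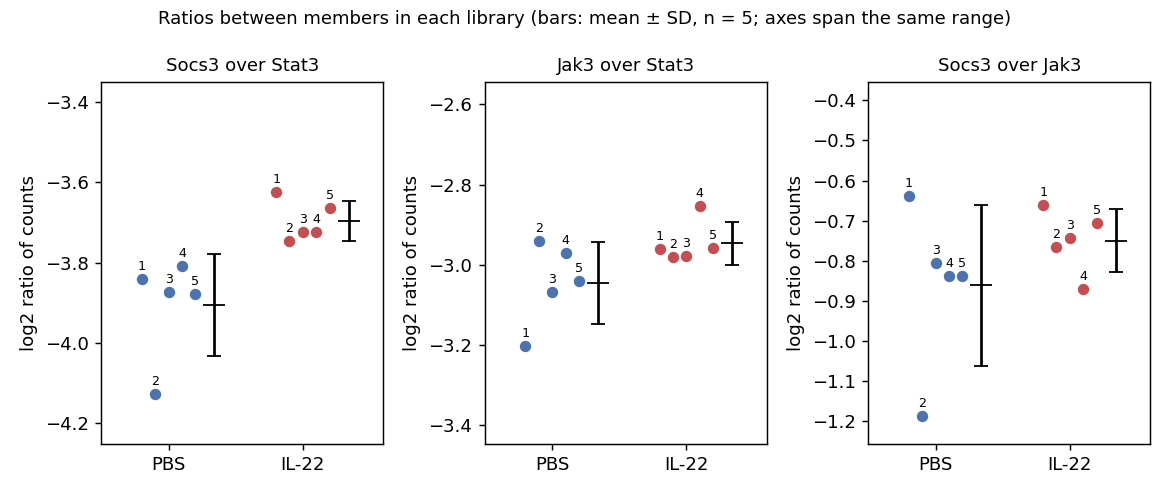
Log2 ratio of counts (vertical axes, each spanning the same range) for the 3 pairs of genes in each library, with points numbered by replicate and bars for the mean ± SD (n = 5). All IL-22 points lie above all PBS points for Socs3 over Stat3 and overlap them for the other pairs, and PBS replicate 2 is the lowest in both ratios with Socs3.

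Of 71 genes on lists of receptors for IL-22 and related cytokines, Janus kinases, STAT factors, inhibitors and STAT3 targets, 7 are in the table. These are the 3 genes above and 4 of the 37 target genes. Of the 7, 6 were higher and 0 lower past the threshold, a share near that of all 230, where 187 were higher and 31 lower. Their median log2 fold change was 0.48, the value of Socs3 itself, beside 0.21 over all listed genes. Most of the 7 were at low levels, where genes tend to pass the authors' selection with larger changes. The medians are thus not matched for level. Junb, a subunit of AP-1, was at 6.99 to 11.1 CPM with PBS and 14.1 to 15.1 CPM with IL-22, which is 0.75 on the log2 scale (SE 0.112, adjusted p = 0.00013). Fgb, the fibrinogen beta chain of the acute-phase response, rose from 1.10 ± 0.352 CPM to 2.24 ± 0.313 CPM (SD, n = 5), from between 15 and 74 reads in a library. Cebpb, a transcription factor of the acute-phase response, rose from 1.19 ± 0.333 CPM to 2.20 ± 0.165 CPM. Their log2 fold changes were 1.03 for Fgb (SE 0.252, adjusted p = 0.0026) and 0.90 for Cebpb (SE 0.225, adjusted p = 0.0028). Bcl3, a nuclear IκB family protein, did not pass (0.33 on the log2 scale, SE 0.119, adjusted p = 0.0148), and its groups overlapped, with PBS replicate 5 at 12.2 CPM and IL-22 replicate 3 at 11.3 CPM. A GC index of each library, defined below, was also used as a covariate, and these 4 genes are among those that form it. With it, Junb was at 0.47 on the log2 scale (adjusted p = 0.00398) and Fgb at 1.41 (adjusted p = 0.00393), or 1.82 with the replicate number as a block as well. In the same fit Cebpb kept its size, at 0.92, with a larger SE of 0.304 and did not pass (adjusted p = 0.0262), and Bcl3 was at 0.090 (adjusted p = 0.528).

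**Figure D3:**
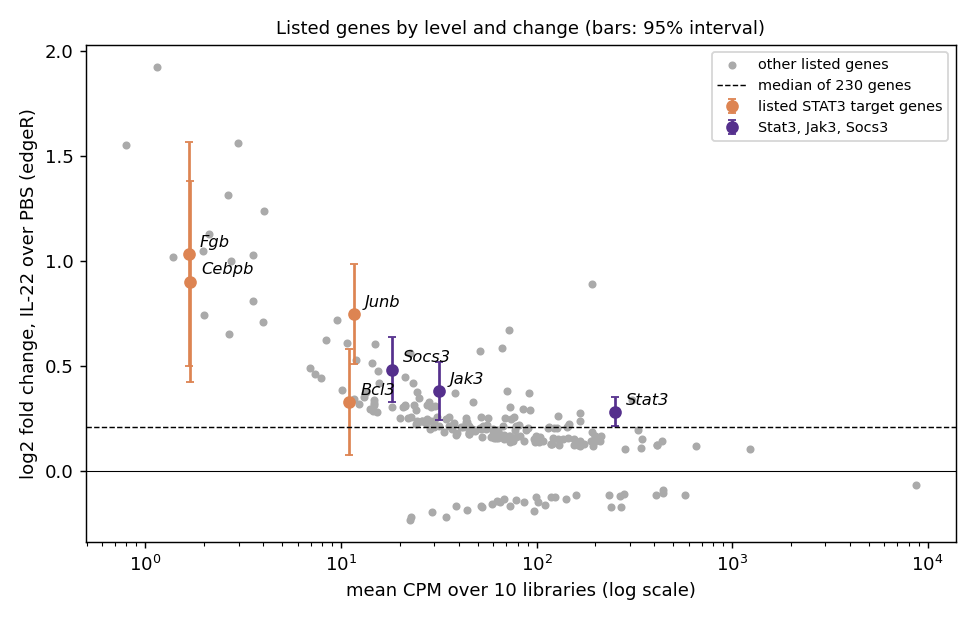
IL-22 over PBS as log2 fold change from edgeR (vertical axis) against mean CPM over the 10 libraries (horizontal axis, log scale) for the 230 listed genes, with 95% intervals for the 7 pathway genes and a dashed line at the median of 0.21. Stat3, Jak3 and Socs3 lie above that median, and Fgb and Cebpb, at low counts, have the widest intervals of the 7.

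Ordered by log2 fold change, Socs3 ranked 30, Jak3 39 and Stat3 71 of 230. Their neighbours in that order were Ppp1r35 (0.49) and 2310039H08Rik (0.48) for Socs3, Ssbp4 (0.38) and Foxo6 (0.38) for Jak3, and Mrpl52 (0.28) and Vgf (0.28), a granule protein precursor, for Stat3. Once group means were removed, the deviations of Stat3 over the 10 libraries were most like those of Avil (Pearson r = 0.90), Grin1 (0.90) and Hspb6 (0.85). Those of Jak3 were most like Sez6l (0.90), Slc37a1 (0.82) and Grin1 (0.81), and those of Socs3 were most like Mesdc1 (0.86), Egln2 (0.83) and Serpina10 (0.82). Between the 3 genes themselves r was 0.68 for Stat3 and Jak3, 0.38 for Stat3 and Socs3 and -0.048 for Socs3 and Jak3. Genes of one library share its depth and base composition, and these values are a description of 10 libraries.

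Over the listed genes, the relation of CPM to GC content differed between the libraries. A GC index was taken for each library over the 227 other listed genes, as the slope that relates their log2 CPM, less its mean over libraries, to the GC content of their longest transcripts. It ran from -0.158 to 0.0843 with PBS and from 0.0417 to 0.0886 with IL-22 (log2 per 10 percentage points of GC), and the transcripts of Stat3, Jak3 and Socs3 have 52.5%, 61.0% and 58.7% GC. The genes behind the index were listed because they differ between the groups. The index may thus carry the response to IL-22 itself as well as a counting effect, and these cannot be told apart here. PBS replicate 5, with an index of 0.0843, lay within the IL-22 range. It had 229 CPM of Stat3, 27.9 CPM of Jak3 and 15.6 CPM of Socs3, each within the range of the other PBS libraries. The part of the index in the changes was not tested beyond the fits that follow. With the index as a covariate, the log2 fold change was 0.25 for Stat3 (adjusted p = 0.00021), 0.32 for Jak3 (adjusted p = 0.00686) and 0.42 for Socs3 (adjusted p = 0.00235). All 3 genes thus passed 0.01 in this fit, in which 13.9% of the listed genes were higher. With the replicate number as a block as well, all 3 passed again, beside 13.0% of the listed genes.

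**Figure D4:**
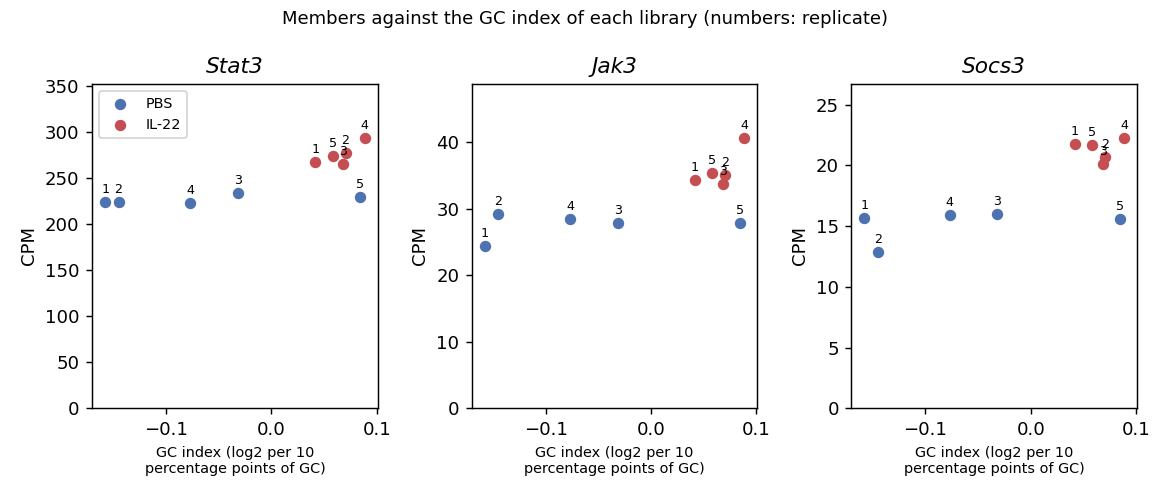
CPM of Stat3, Jak3 and Socs3 (vertical axes, from 0) against the GC index of each library (horizontal axes, log2 per 10 percentage points of GC), with points coloured by group and numbered by replicate. PBS replicate 5 lies among the IL-22 libraries on the horizontal axis and with the PBS libraries on the vertical axis.

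The scale between libraries set the size of these changes. When factors were computed from the listed genes alone, the calls over the table went from 187 higher and 31 lower to 18 higher and 33 lower with TMM, and to 30 higher and 33 lower with DESeq2's own factors, since such factors take most genes as unchanged and shift the median log2 fold change by -0.21 (TMM). Relative to that shift, the log2 fold change of Socs3 was 0.28 with TMM and 0.29 with DESeq2's own factors and passed 0.01 in both. Jak3, at 0.17 and 0.18, and Stat3, at 0.073 and 0.083, did not pass. Fgb (0.82, adjusted p = 0.0224) and Cebpb (0.70, adjusted p = 0.0278) did not pass with TMM. With DESeq2's own factors both passed (Fgb 0.83, adjusted p = 0.0031, and Cebpb 0.70, adjusted p = 0.0034). Unlisted genes could not enter the adjustment. Counting all 21951 protein-coding genes of the annotation as tests, with each unlisted gene given a larger p, the adjusted p was 0.00126 for Stat3, 0.0128 for Socs3 and 0.0354 for Jak3. On that count 3.04% of the listed genes were higher at 0.01, Stat3 among them, and 9.57% at 0.05, all 3 genes among them.

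**Figure D5:**
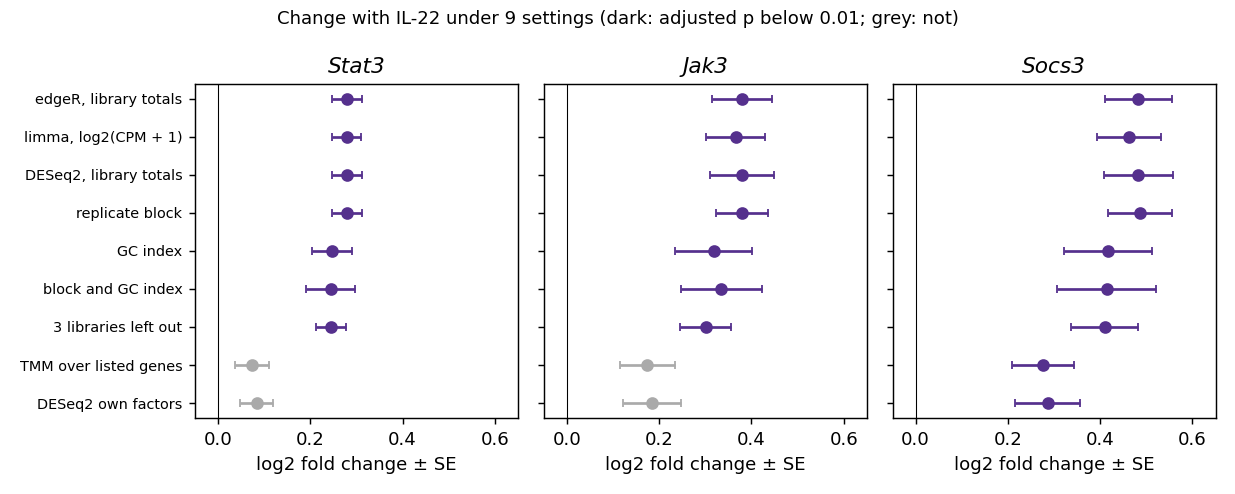
Log2 fold change ± SE (horizontal axes) of Stat3, Jak3 and Socs3 with IL-22 under each setting named at the left, in dark where the adjusted p was below 0.01 and in grey where it was not. All estimates are above 0, and the lowest are those with factors computed from the listed genes (0.073 for Stat3, 0.17 for Jak3 and 0.28 for Socs3).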

How the data were processed

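RNA of MIN6N8 cells given PBS or IL-22 (n = 5 each, groups and replicate numbers from the sample labels) was made into stranded mRNA libraries and sequenced by the authors. They deposited 1 table of 230 genes with raw counts of reads per gene and the CPM of each library. The aligner, counter and annotation are not given in the sources used here, and the build is mm10. The remaining columns hold the authors' own fold change, p-value, FDR and mean expression and were not used. The deposited CPM equalled the count over a recovered library total in 100.0% of values (tolerance 0.000501).

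Counts were tested in edgeR 4.0.16 (R 4.3.3) with library totals, for genes with at least 1 CPM in 5 libraries (all 230), adjusted by Benjamini-Hochberg and called below 0.01. SE came from the F statistic. Dispersions rest on listed genes only. Ratios between genes were compared by exact permutation tests (scipy 1.17.1). Alternatives were limma 3.58.1, DESeq2 1.42.0, TMM, other pseudocounts, filters and adjustment, the replicate block, the GC index and each library left out. All 230 genes were found in GENCODE M21, 10 by another symbol. Sequence matches used blastn 2.17.0. The edgeR, limma and permutation procedures were tested on simulated data. Same-numbered libraries did not all deviate together (correlations from -0.31 to 0.33), so the numbers were not taken as pairs.

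The genes and lists were chosen with earlier results of these data known. Named genes are the 3 members, the list genes in the table, the 3 genes most like each member and its 2 neighbours by fold change. Rgs4 and Iapp were named after their values were seen.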

Additional observations from a re-analysis of the deposited data

Results flagged for a closer look

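Among 24 groups of 5 libraries examined (the 7 pathway genes, the 3 ratios, the library totals and the GC index), 1 library lay far from the others of its group in 5, where about 1.2 would by chance. Jak3 was at 24.4 CPM in PBS replicate 1, with the other PBS libraries at 27.9 to 29.2 CPM. Jak3 was at 40.7 CPM in IL-22 replicate 4, with the others at 33.7 to 35.3 CPM, and the log2 ratio of Jak3 over Stat3 was -2.85 there, against -2.98 to -2.96. Socs3 was at 12.8 CPM in PBS replicate 2, with the others at 15.6 to 16.0 CPM, and its log2 ratio over Stat3 was -4.13 there, against -3.88 to -3.81. PBS replicates 1 and 2 had the lowest GC index of all libraries, at -0.158 and -0.145, and IL-22 replicate 4 the highest, at 0.0886. The part of the index in these values was not tested.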

How the results depend on the processing

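In all settings tried, the log2 fold changes of Stat3, Jak3 and Socs3 stayed above 0. Leaving out 1 library at a time gave 0.26 to 0.29 for Stat3, 0.33 to 0.40 for Jak3 and 0.43 to 0.50 for Socs3, each past 0.01. The number of listed genes called, 218 with all libraries, was then 145 to 228, the lowest without PBS replicate 1, and 6 or 7 pathway genes were called. With TMM over the listed genes 51 genes and 2 pathway genes were called (Stat3 0.073, Jak3 0.17). With DESeq2's own factors 63 genes and 4 pathway genes were called (Stat3 0.083, Jak3 0.18). With these factors, TMM first, Grin1 (-0.039 and -0.029), Hspb6 (-0.020 and -0.0096), Sez6l (-0.057 and -0.047), Slc37a1 (-0.066 and -0.055) and Egln2 (-0.062 and -0.052) turned lower, by the construction of the scale. The GC index left 32 genes called, as did the block and index together (30 higher and 2 lower). Counting the protein-coding genes as tests left 7 genes and 1 pathway gene, with Jak3 (0.38) and Socs3 (0.48) above 0.01. With the replicate block alone, edgeR gave 0.28 for Stat3, 0.38 for Jak3 and 0.49 for Socs3, all past 0.01, and the block changed no call of the 3 genes. Among the named genes it brought Bcl3 to an adjusted p = 0.00973.

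The larger rise of Socs3 than of Stat3 kept its direction throughout. Its call was lost as a difference of medians (0.15) and in a sign-flip test on same-numbered pairs (0.21, adjusted p = 0.188), where 5 pairs allow no p below 0.0625 (exact permutation). After the data were seen, PBS replicates 1 and 2 and IL-22 replicate 4 were also left out together. That gave 0.24 for Stat3, 0.30 for Jak3 and 0.41 for Socs3, each past 0.01, with 52 listed genes called. The log2 ratio of Socs3 over Stat3 was then 0.16, in a design that allows no p below 0.0571. Leaving out 1 library gave 0.15 to 0.23 for this ratio, 0.058 to 0.12 for Jak3 over Stat3 and 0.030 to 0.17 for Socs3 over Jak3.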
